A study of Mus musculus with 4 samples.

Results

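The genes described here encode 8 proteins that the choroid plexus releases or carries at its surface: Ttr, Enpp2, Folr1, Kl, Sostdc1, Wfdc2, Clu and 1500015O10Rik. They were taken by symbol from the 31053 genes of the deposited feature tables, and their levels were read in 1821 choroid plexus cells of 14415 cells in all, in the other cell classes, and in free RNA, meaning the barcodes that held at most 100 UMIs (unique molecular identifiers, 1 per captured mRNA). The 4 libraries came from male wild-type C57BL/6 mice of 12 to 14 weeks. In the chronic social defeat (CSD) condition a mouse lived for 14 days behind a perforated partition in the cage of an aggressive CD-1 male. It was exposed to aggressors for 5 minutes each day. Home cage (HC) mice were housed in pairs across a partition for the same 14 days. The paper describes the partner of each HC mouse as a mouse of the aggressors' strain, with the partition left in place throughout. Each library pooled brain cells of 4 mice that were enriched with magnetic beads against CD31, a protein of endothelial cells, and there were 2 libraries per condition (CSD 1, CSD 2, HC 1 and HC 2), so that the spread between libraries is a spread between pools.

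The choroid plexus is a folded epithelium in the ventricles of the brain that makes cerebrospinal fluid and secretes proteins into it. Its cells are known for very high transcription of transthyretin, the protein encoded by Ttr, which carries thyroxine and the retinol-binding protein. Of the other members, some act as enzymes or antagonists outside the cell, and Folr1 and Kl encode membrane-bound proteins that are also shed into the fluid.

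Sequence before the RefSeq start site was at hand for Kl and Wfdc2, the 2 members with the largest difference between deep and shallow choroid plexus cells. They are shown 5′ to 3′ from RefSeq (GRCm38.p6), with annotated exons left out. The sequence of Kl (chr5:150952357-150952606, plus strand) lies just before the gene. That of Wfdc2 (chr2:164562475-164562578, plus strand) lies before the RefSeq start site but within the GENCODE gene, which begins at 164562413, and it runs between annotated exons of that gene. Capitals mark the GC box GGGCGG or its other strand CCGCCC, a site bound by Sp1.
Kl: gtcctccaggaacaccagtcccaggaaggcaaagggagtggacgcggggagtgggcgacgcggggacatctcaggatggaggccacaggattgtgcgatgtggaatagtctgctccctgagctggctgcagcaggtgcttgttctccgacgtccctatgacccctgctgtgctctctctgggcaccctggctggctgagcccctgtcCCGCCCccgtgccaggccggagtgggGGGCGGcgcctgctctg
Wfdc2: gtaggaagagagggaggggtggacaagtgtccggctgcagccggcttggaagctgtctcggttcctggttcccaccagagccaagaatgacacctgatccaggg
The Kl window held 2 GC boxes and a GC content of 66.8%, and the 104 bases of Wfdc2 held 0 GC boxes and a GC content of 60.6%. The letters TAATC, the core of the motif of Otx2, a homeodomain factor of the choroid plexus, were found 0 times on either strand in both. Over the 250 bases before the start of 27025 genes, 32.9% held the GC box and 20.2% held TAATC.

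All 8 genes are protein-coding in GENCODE vM21 on GRCm38. Ttr lies on chromosome 18 from 20665280 to 20674321 (plus strand), Enpp2 on chromosome 15 from 54838901 to 54952892 (minus strand), Folr1 on chromosome 7 from 101858331 to 101870788 (minus strand) and Kl on chromosome 5 from 150952607 to 150993817 (plus strand). Sostdc1 lies on chromosome 12 from 36314139 to 36318452 (plus strand), Wfdc2 on chromosome 2 from 164562413 to 164568510 (plus strand), Clu on chromosome 14 from 65968483 to 65981547 (plus strand) and 1500015O10Rik on chromosome 1 from 43730602 to 43742578 (plus strand). The members therefore sit on 8 different chromosomes.

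The libraries held 27297599 to 30361474 UMIs, and pairs of libraries shared 0 to 9 cell barcodes. CSD 2 stood apart from the others. Only 32.6% of its UMIs lay in cells, against 51.8 to 56.8% in the other 3 libraries, and it gave 101 choroid plexus cells, against 426 in CSD 1, 396 in HC 1 and 898 in HC 2. The choroid plexus class was made of 3 of 34 clusters, found without the 8 members among the variable genes, and named from 15 markers that do not include them. All 15 were detected, and together they held 5085 to 5382 CPM (counts-per-million, UMIs scaled to the total UMIs of the same cells) in the 4 libraries. The endothelial marker Pecam1, which encodes CD31, was at 2.89 ± 0.62 CPM in these cells and at 479 ± 89.2 CPM in endothelial cells (SD, n = 4 libraries). A gate on the same 15 markers took 1651 cells, of which 1617 were in the class, 34 were in other classes and 0 were in the 546 cells of unnamed clusters. Member levels in the gated cells were close to those in the class (Ttr 308330, 314125, 303358 and 316669 CPM), so that values of the class are given from here on. Of the 1821 cells, 1261 formed 2 deep clusters with median depths of 13254 and 26670 UMIs, and 560 formed a shallow cluster with a median of 1083 UMIs whose leading genes included those of hemoglobin. Doublet scoring marked 35 cells of the class, which were kept, and it marked only 0.0981% of the cells of CSD 1.

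The 8 members made up 33.2% and 33.7% of all UMIs of choroid plexus cells in CSD 1 and CSD 2, and 32.7% and 34.1% in HC 1 and HC 2. Ttr supplied nearly all of this. It held 309636 and 313843 CPM in CSD 1 and CSD 2, and 303403 and 318036 CPM in HC 1 and HC 2. These values are UMIs counted at the 3′ end of each mRNA, so levels of different genes are on 1 scale with no correction for length.

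Enpp2 encodes autotaxin, the secreted enzyme that makes lysophosphatidic acid. It was the next most abundant member, at 12898 and 13447 CPM in CSD 1 and CSD 2 and at 13979 and 12123 CPM in HC 1 and HC 2. Both CSD libraries lay between the HC libraries. The gene 1500015O10Rik, also known as Ecrg4, encodes the secreted precursor of augurin, and was at 4488 and 4148 CPM in the CSD libraries and at 4242 and 4964 CPM in the HC libraries, with overlap.

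Clu encodes clusterin, an extracellular chaperone and apolipoprotein. It was at 1528 and 1576 CPM in CSD 1 and CSD 2 and at 1504 and 1666 CPM in HC 1 and HC 2, so that both CSD libraries again lay between the HC libraries. Folr1 encodes the folate receptor alpha, which takes folate across the epithelium into the fluid, and was at 1336 and 1329 CPM in the CSD libraries and at 1235 and 1394 CPM in the HC libraries. Kl encodes Klotho, a co-receptor for FGF23 whose outer part is shed, and was at 747 and 798 CPM in the CSD libraries and at 807 and 701 CPM in the HC libraries. Neither Folr1 nor Kl separated the conditions.

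Sostdc1 encodes a secreted antagonist of BMP and Wnt ligands. It was at 1086 and 1064 CPM in CSD 1 and CSD 2 and at 1092 and 1158 CPM in HC 1 and HC 2, the only member whose libraries did not overlap between conditions. Among the 11538 genes tested, 28% did not overlap in this way, so 1 of 8 members is no more than the background, and with TMM scaling the values of Sostdc1 overlapped (1058 and 1084 against 1083 and 1184 CPM). Wfdc2, which encodes a small secreted protein with the WAP domain of protease inhibitors, had the lowest level, at 476 and 517 CPM in the CSD libraries and at 483 and 520 CPM in the HC libraries. The order of the members by level was Ttr, Enpp2, 1500015O10Rik, Clu, Folr1, Sostdc1, Kl and Wfdc2 in each of the 4 libraries.

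**Figure D1:**
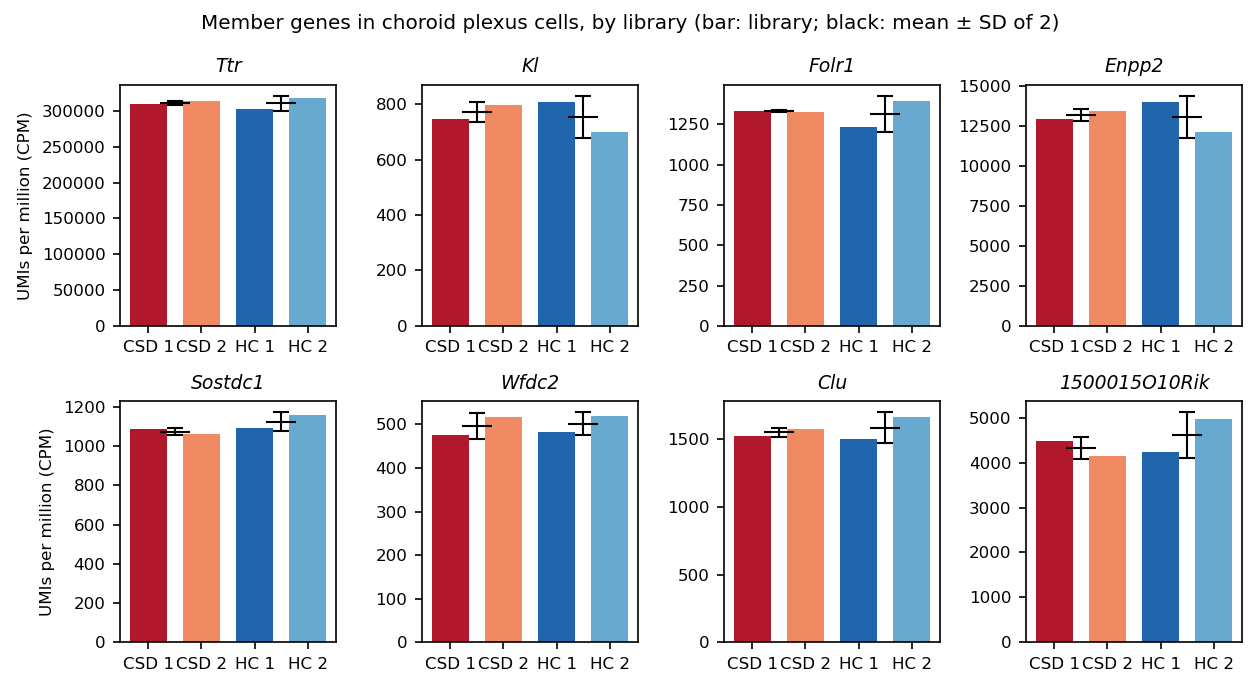
CPM (linear axis from 0) of each member gene in the choroid plexus cells of the 4 libraries. Bars are libraries, and the black marks are the mean ± SD of the 2 libraries of a condition. The ranges of CSD and HC overlap for every member except Sostdc1, whose HC values of 1092 and 1158 CPM lie just above the CSD values of 1086 and 1064 CPM.

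The comparison of CSD with HC asks whether 14 days of defeat were followed by another level of these transcripts. None of the 8 members passed the test in choroid plexus cells (edgeR quasi-likelihood test, Benjamini-Hochberg adjusted p = 0.9997 for each), against 0.052% of the 11538 genes tested (6 genes). At an unadjusted p under 0.05 there were 356 genes, 0 of them members, and DESeq2 called 0 members among its 4 genes. The log2 fold changes of CSD over HC were all near 0. That of Ttr was -0.010 ± 0.10, that of Enpp2 was 0.0010 ± 0.15 and that of Folr1 was 0.0038 ± 0.17 (± SE, n = 2 libraries per condition).

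The members with the largest size of change were 1500015O10Rik at -0.11 ± 0.16 and Sostdc1 at -0.081 ± 0.17, each within 1 standard error of 0. Clu was at -0.046 ± 0.17, Wfdc2 at -0.031 ± 0.18 and Kl at 0.021 ± 0.18. The median over the members was -0.020, and over all genes -0.0016. With 2 libraries per condition, changes of the size of these standard errors were not detectable, and larger ones can be missed. In counts simulated for this comparison, with 1 fixed spread for all genes, 61% of the genes changed 2-fold were called. Of those changed 4-fold, 99% were called. Only genes above a minimum mean count were changed. Leaving out any 1 library also gave 0 member calls.

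The members differed in how evenly the cells of a library carried them. Cells were thinned to 5000 UMIs each, which left 328 cells of CSD 1, 62 of CSD 2, 263 of HC 1 and 625 of HC 2. The median cell then held 1527 to 1605 UMIs of Ttr over the 4 libraries. Its coefficient of variation across cells was 0.161 in CSD 1, 0.265 in CSD 2, 0.168 in HC 1 and 0.171 in HC 2, where counting alone would give 0.0249 to 0.0254. Ttr therefore varied between cells by much more than sampling of its UMIs. In CSD 2, 96.8% of the 62 cells held a Ttr UMI at this depth, and its coefficients of variation include the cells at 0.

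Enpp2 had a median of 56 to 67 UMIs per cell and a coefficient of variation of 0.263 to 0.391, against 0.122 to 0.130 from counting. For Sostdc1 the median was 5 UMIs in each library, with 0.615 to 0.705 against 0.419 to 0.452 from counting. Both were more uneven than their counts alone would give. Folr1 lay closest to its counting spread, with medians of 6 to 7 UMIs and 0.401 to 0.475 against 0.377 to 0.405.

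Pairs of members were only weakly related across these cells, and the values are a description, since cells of a library share depth and handling. The Spearman correlation of Enpp2 with Kl was 0.23 to 0.47 over the 4 libraries and that of Enpp2 with Sostdc1 was 0.15 to 0.39. Ttr was weakly and positively related to 1500015O10Rik (0.14 to 0.25). It was weakly and negatively related to Enpp2 (-0.22 to -0.073) and to Kl (-0.21 to -0.093), and the fixed total of 5000 UMIs ties every gene to the rest.

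The share of cells with at least 1 UMI was compared at 500 UMIs per cell, because the median depth was 12627 UMIs in choroid plexus cells and 1082 UMIs in endothelial cells. At that depth Ttr was found in 98.9% ± 1.92 of choroid plexus cells, Enpp2 in 95.2% ± 3.43 and 1500015O10Rik in 84.3% ± 5.36 (SD, n = 4 libraries). Shares were 53.4% ± 2.45 for Clu, 49.1% ± 5.11 for Folr1, 37.9% ± 2.46 for Sostdc1, 28.3% ± 2.08 for Kl and 20.5% ± 1.53 for Wfdc2. In endothelial cells, taken as a class that should lack these products, the shares at the same depth were 78.5% ± 24.6 for Ttr, 16.4% ± 6.54 for Enpp2, 8.13% ± 1.97 for Clu, 5.88% ± 4.28 for 1500015O10Rik and 0.626 to 1.71% for the other 4 members. A single Ttr UMI thus says little about which cell a barcode held. With all UMIs kept, 79.2% ± 2.96 of choroid plexus cells held Wfdc2 and 99.8% ± 0.495 held Ttr.

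Member levels were next compared between deep choroid plexus cells (at least 2000 UMIs) and shallow ones (from 500 to under 1000 UMIs) of the same library, of which there were 349 and 45 in CSD 1, 71 and 19 in CSD 2, 290 and 65 in HC 1, and 705 and 127 in HC 2. Wfdc2, Kl, Enpp2 and Sostdc1 stood higher in the deep cells of every library, Sostdc1 by 1.46, 1.24, 1.40 and 1.06 times in CSD 1, CSD 2, HC 1 and HC 2. Wfdc2 was at 478, 518, 485 and 521 CPM in deep cells of CSD 1, CSD 2, HC 1 and HC 2, and at 186, 310, 245 and 305 CPM in shallow cells. Kl was at 748, 802, 811 and 710 CPM in deep cells and at 466, 466, 579 and 260 CPM in shallow cells. The shallow cells of the 4 libraries held only 32180, 12886, 44874 and 88474 UMIs in all. The shallow levels of Wfdc2 and Kl, and ratios made with them, therefore rest on few UMIs. Enpp2 was at 12935, 13523, 14034 and 12214 CPM in deep cells and at 7707, 8847, 9939 and 6736 CPM in shallow cells. In each of Wfdc2, Kl and Enpp2 the lowest deep library lay above the highest shallow library. For Sostdc1 they overlapped (1059 CPM in deep cells of CSD 2, 1096 CPM in shallow cells of HC 2).

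The ratio of deep to shallow CPM was 1.98 ± 0.41 for Wfdc2, 1.86 ± 0.59 for Kl, 1.61 ± 0.17 for Enpp2 and 1.29 ± 0.18 for Sostdc1 (SD, n = 4 libraries). It was 1.16 ± 0.31 for 1500015O10Rik, 1.15 ± 0.27 for Folr1, 1.13 ± 0.19 for Ttr and 0.968 ± 0.13 for Clu. Ttr was at 309966, 313923, 303459 and 316959 CPM in deep cells and at 225637, 266568, 294291 and 336121 CPM in shallow cells, so that HC 2 went the other way from CSD 1. The summed 15 markers of the class had a ratio of 1.22 ± 0.15.

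In the test with the library as a block, 4 of 8 members were called higher in deep cells, where 2.35% of 8461 genes were called (0.981% higher and 1.37% lower). That share is not matched for level. With 12886 to 88474 UMIs in the shallow cells of a library, genes of low level could hardly be called. The count of members is therefore not read as an excess. The log2 fold changes depended on the scaling. With TMM the median of all genes was 0.39, and relative to it Wfdc2 was at 1.19, Kl at 1.15, Enpp2 at 1.02 and Sostdc1 at 0.64. As fitted, these were 1.58 ± 0.36 (edgeR adjusted p = 0.00147) for Wfdc2, 1.54 ± 0.34 (adjusted p = 0.000761) for Kl, 1.42 ± 0.30 (adjusted p = 0.000600) for Enpp2 and 1.03 ± 0.32 (adjusted p = 0.0468) for Sostdc1. The other 4 members did not pass, at 0.52 for Ttr, 0.51 for Folr1, 0.50 for 1500015O10Rik and 0.27 for Clu relative to that median. In counts simulated for this comparison, 7% of the genes changed 2-fold and 51% of those changed 4-fold were called.

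With RLE size factors the median of all genes was -0.046 and with total UMIs alone it was -0.20. Calls then split into 28 higher and 166 lower with RLE, 22 higher and 203 lower with total UMIs and 14 higher and 202 lower with DESeq2, against 83 higher and 116 lower with TMM. Wfdc2, Kl and Enpp2 were called in all 4 fits, with log2 fold changes of 0.93, 0.87 and 0.67 on total UMIs. Sostdc1 was called with TMM alone (adjusted p = 0.353 with RLE), and Clu turned to -0.045 on total UMIs. Leaving out 1 library kept the call of Kl each time. It ended that of Enpp2 without CSD 1 (adjusted p = 0.192), that of Wfdc2 without CSD 1 (adjusted p = 0.0516) or HC 1 (adjusted p = 0.0632), and that of Sostdc1 without CSD 1 (adjusted p = 0.391), CSD 2 (adjusted p = 0.0964) or HC 1 (adjusted p = 0.368).

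Other transcripts also differed with depth. Their values are given for the shallow cluster (560 cells) and the deep clusters (1261 cells), which overlap with the shallow and deep cells of the test but are not the same sets. The 8 hemoglobin genes, 4 of which were at 0, summed to 29714, 216542, 24795 and 13.4 CPM in the shallow cluster of CSD 1, CSD 2, HC 1 and HC 2, and to 316, 12.5, 97.5 and 4.50 CPM in the deep clusters. The 12 microglial markers summed to 123 to 679 CPM in the shallow cluster and 41.8 to 101 CPM in the deep clusters, with none at 0 in either. The 13 endothelial markers, none at 0, summed to 283 to 674 CPM in the shallow cluster and to 229 to 297 CPM in the deep clusters. In CSD 2 they were lower in the shallow cluster (283 against 297 CPM). Not every list stood higher there. The 9 fibroblast markers, 3 of them at 0 in the shallow cluster, had a mean of 1197 CPM there and 1442 CPM in the deep clusters. In HC 2 they went the other way (1479 against 1409 CPM). The part of these transcripts in the difference of the members was not tested.

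**Figure D2:**
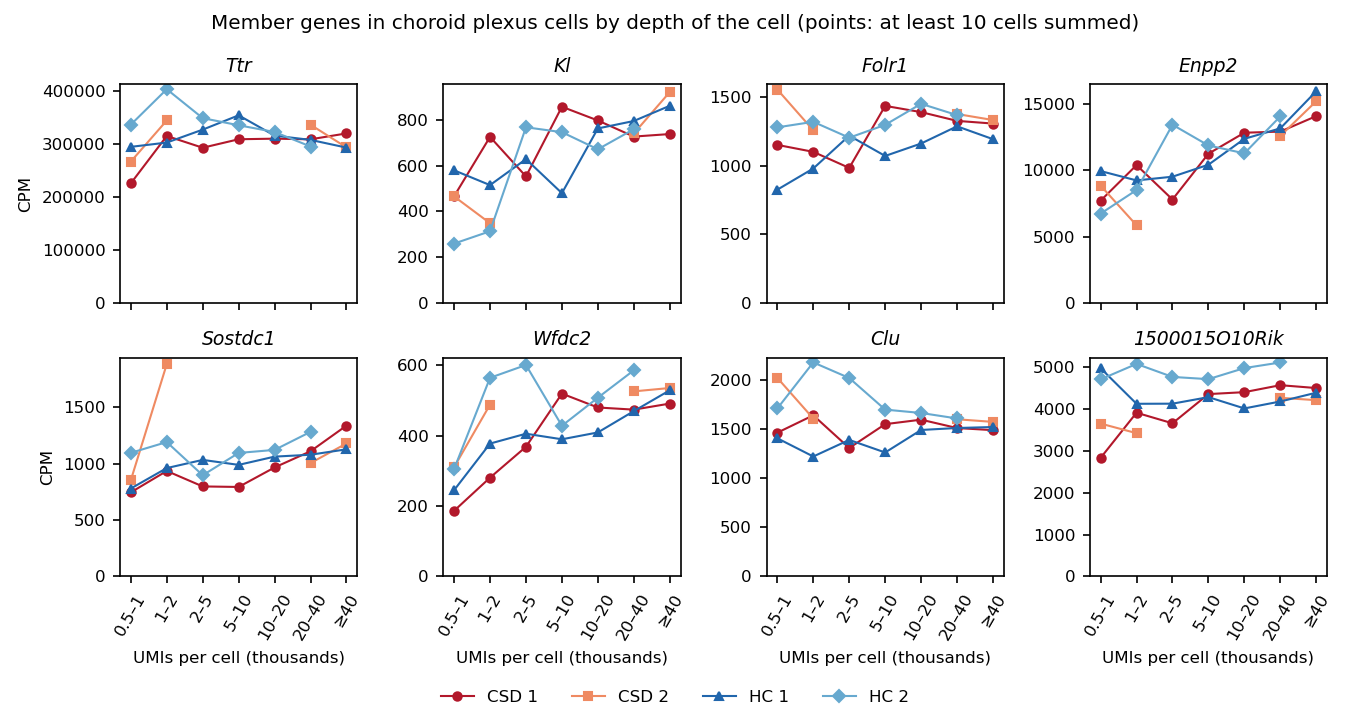
CPM of each member (linear axis from 0) in choroid plexus cells binned by the number of UMIs in the cell, from 500 to under 1000 on the left to at least 40000 on the right, with 1 line per library. A bin is drawn where a library had at least 10 cells in it, so CSD 2 has no points between 2000 and 20000 UMIs. Wfdc2 is lowest in the shallowest bin of each library and Enpp2 is lowest in a bin under 2000 UMIs in each, as is Kl except in HC 1 (480 CPM from 5000 to under 10000 UMIs). Enpp2 reaches 14072, 15193 and 15944 CPM in the deepest cells of CSD 1, CSD 2 and HC 1, while Clu stays without a common direction.

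Free RNA carried all 8 members. They made up 11.3% of the UMIs in barcodes of at most 100 UMIs in CSD 1, 2.57% in CSD 2, 11.9% in HC 1 and 14.8% in HC 2. Ttr was at 105770 CPM in CSD 1, 23328 in CSD 2, 110553 in HC 1 and 139969 in HC 2. CSD 2 was the lowest library for every member, and for 7 of the 8 by a wide margin. Enpp2 was at 3949, 905, 4889 and 3455 CPM and Wfdc2 at 165, 47.9, 178 and 232 CPM in CSD 1, CSD 2, HC 1 and HC 2. Clu was the exception, at 952, 808, 974 and 1063 CPM. In 5 of the 8 members (Ttr, 1500015O10Rik, Sostdc1, Wfdc2 and Clu) neither CSD library reached the lower of the HC libraries, where 37.1% of 12230 genes did not overlap (14.1% with CSD higher and 23% with CSD lower). With TMM scaling this held for 3 of the 8 (Ttr, Sostdc1 and Wfdc2), since CSD 1 lay above HC 1 for 1500015O10Rik (1604 against 1590 CPM) and Clu (993 against 980 CPM). The number of cells that gave this RNA and the amount from each cannot be told apart in these values.

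Expressed as a share of the level in choroid plexus cells of the same library, free Ttr was at 34.2% in CSD 1, 7.43% in CSD 2, 36.4% in HC 1 and 44.0% in HC 2. Wfdc2, 1500015O10Rik and Folr1 followed Ttr, with shares of 0.969 to 1.25 times that of Ttr in the same library. Clu was at 62.3, 51.3, 64.7 and 63.8%, or 1.45 to 6.90 times the share of Ttr. Sostdc1 was low in all 4 libraries, at 19.7, 5.31, 23.6 and 23.9%.

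The share of Sostdc1 was 0.578, 0.715, 0.648 and 0.543 times that of Ttr in CSD 1, CSD 2, HC 1 and HC 2, a mean log2 ratio of -0.70 ± 0.18 (SD, n = 4). It was below 1 in 4 of 4 libraries, and an exact two-sided sign-flip test gave p = 0.125, the smallest that 4 libraries allow. The same p was reached by Enpp2 (-0.25 ± 0.26), Wfdc2 (0.095 ± 0.15), 1500015O10Rik (0.072 ± 0.12) and Clu (1.25 ± 1.03) of the 7 members compared with Ttr, so no ratio passes a threshold of 0.05 and the adjusted values can be no lower.

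**Figure D3:**
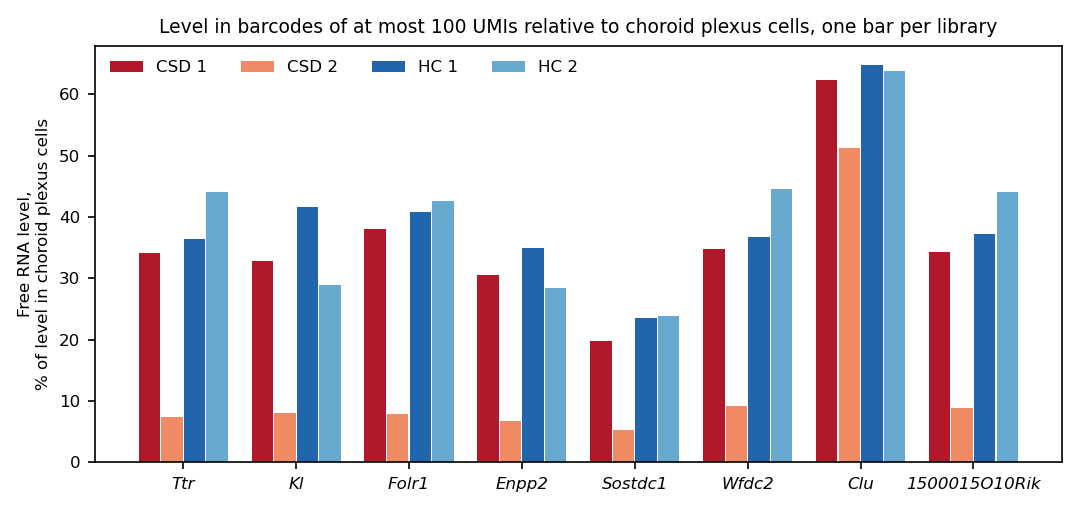
Level of each member in free RNA (barcodes of at most 100 UMIs) as a percent of its level in choroid plexus cells of the same library, on a linear axis from 0, with 1 bar per library. CSD 2 is the lowest bar for each gene, Clu is the highest gene at 51.3 to 64.7%, and Sostdc1 is the lowest gene at 5.31 to 23.9%.

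Between CSD and HC, 0 of 8 members were called in free RNA by edgeR, where 0.00818% of 12230 genes were (1 gene), and 776 genes had an unadjusted p under 0.05, 0 of them members. DESeq2 called 0 members. The log2 fold changes were -0.90 ± 0.50 for 1500015O10Rik, -0.90 ± 0.47 for Sostdc1, -0.87 ± 0.51 for Ttr, -0.86 ± 0.45 for Wfdc2, -0.76 ± 0.53 for Folr1, -0.73 ± 0.50 for Kl, -0.71 ± 0.52 for Enpp2 and -0.14 ± 0.24 for Clu (± SE, n = 2 per condition). In counts simulated for this comparison, 52% of the genes changed 2-fold and 96% of those changed 4-fold were called. The fold changes of the members rested on CSD 2. Without it the log2 fold change of Ttr was -0.15 and that of Enpp2 was -0.00013. Without CSD 1 it was -2.38 for Ttr, and 7 of the 8 members were called, among 1421 genes in all. The CSD condition is then CSD 2 alone, which is assumed to vary like the HC libraries, whose spread is the only one left.

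The level of each member in the other classes is a description. Except where all cells are named, it is given without the 34 cells of other classes that passed the gate of choroid plexus markers. Choroid plexus cells were the highest class for 7 members. Clu was the exception, with 2801 ± 521 CPM in ependymal cells, 2124 ± 683 CPM in astrocytes and 1568 ± 71.6 CPM in choroid plexus cells over all cells of each class (SD, n = 4 libraries). The ranges of ependymal cells and astrocytes overlapped, as did those of astrocytes and choroid plexus cells, while the lowest ependymal library (2373 CPM) lay above the highest choroid plexus library (1666 CPM).

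The gate mattered most for fibroblasts, of which 13 of 130 passed it. With these cells fibroblasts held 134405 ± 27463 CPM of Ttr, and without them 1619 and 904 CPM in CSD 1 and CSD 2 and 4280 and 5786 CPM in HC 1 and HC 2. In endothelial cells Ttr was at 5205, 1446, 4783 and 11600 CPM in CSD 1, CSD 2, HC 1 and HC 2, and in microglia at 4359, 432, 3309 and 5543 CPM. CSD 2 was lowest in both, as in free RNA.

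**Figure D4:**
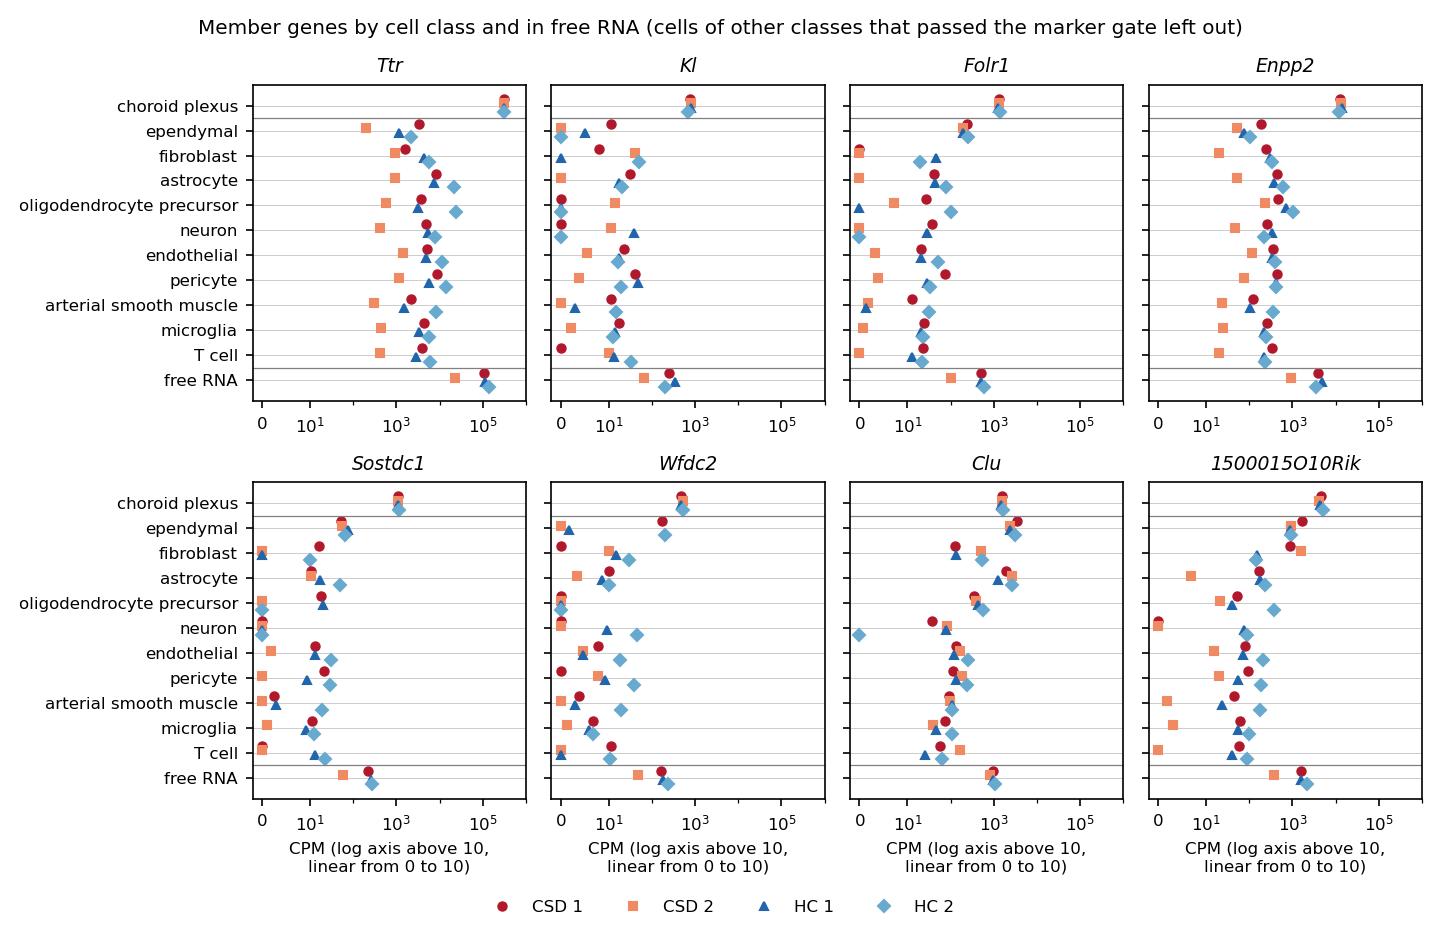
CPM of each member in choroid plexus cells, in 10 other classes without their gated cells, and in free RNA. The horizontal axis is linear from 0 to 10 CPM and logarithmic above, and each library has its own mark. Choroid plexus cells stand highest for 7 members, Clu is higher in ependymal cells in each library and in astrocytes in 3 of 4 (in HC 1 it is at 1258 CPM in astrocytes and at 1504 CPM in choroid plexus cells), and the CSD 2 mark (square) lies to the left of the others in most classes and in free RNA for Ttr.

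Since 1 source of free RNA keeps its genes in 1 ratio, the UMIs of each member in a class were set beside the number that its Ttr UMIs and the ratio in free RNA of that library would give. With the 4 libraries summed, the found and given numbers lay close together in endothelial cells and microglia for Folr1, Wfdc2 and 1500015O10Rik. In 5021 endothelial cells 181 Folr1 UMIs were found where 196 were given by Ttr, 67 Wfdc2 UMIs where 72.6 were given, and 710 UMIs of 1500015O10Rik where 663 were given. In 4661 microglia the found number was 1.11 times the given for Folr1, 0.945 for Wfdc2 and 1.05 for 1500015O10Rik. In single libraries the ratio spread more widely. It was 0.494 to 1.05 for Folr1, 0.608 to 1.54 for Wfdc2 and 0.685 to 1.15 for 1500015O10Rik in endothelial cells, and 0.351 to 1.37, 0.736 to 1.53 and 0.450 to 1.18 in microglia. For Folr1 and 1500015O10Rik the lowest of these was CSD 2 in both classes.

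Enpp2 was found at 1.62 times the given number in endothelial cells and 1.61 times in microglia, and Clu at 2.93 and 2.12 times. Kl was at 1.32 and 1.59 times and Sostdc1 at 1.21 and 1.18 times. In CSD 2 the ratio of Clu in endothelial cells was 3.21.

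Ependymal cells, the ciliated lining of the ventricles, carried several members far beyond this. In 227 ependymal cells, 218 held Clu with 4115 UMIs in all, at 3413, 2375, 2373 and 3020 CPM in CSD 1, CSD 2, HC 1 and HC 2, which is 114 to 350 times the number given by Ttr. The gene 1500015O10Rik was found in 175 of the 227 cells, with 1579 UMIs in all and at 1673, 906, 892 and 904 CPM, or 26.0 to 294 times the given number. Folr1 was found in 123 cells, at 238, 193, 191 and 257 CPM, or 14.8 to 220 times, and Sostdc1 in 46 cells, at 52.0, 53.4, 76.9 and 65.8 CPM, or 7.70 to 113 times. All 4 genes were above the given number in each of the 4 libraries. The highest multiple of each was in CSD 2, where Ttr was low. There the given number was only 2.29 UMIs for Clu, 1.04 for 1500015O10Rik, 0.296 for Folr1 and 0.160 for Sostdc1. The upper ends of these ranges are therefore not sizes of a difference. The lowest multiple of Clu, Folr1 and Sostdc1 was in CSD 1, where 1 cell held 597 Ttr UMIs. At 500 UMIs per cell, 1500015O10Rik was found in 32.2% ± 13.4 and Folr1 in 8.73% ± 4.59 of all 228 ependymal cells, whose median depth was 5162 UMIs (SD, n = 4), above the shares in endothelial cells.

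Wfdc2 behaved differently from these. Its 112 UMIs lay in 9 of the 227 ependymal cells, 45 in CSD 1, 0 in CSD 2, 1 in HC 1 and 66 in HC 2, and 6 cells held at least 4 of them, up to 48 in 1 cell. Those 6 cells had a median of 3276 CPM of the 10 ependymal markers, against 15166 CPM in the 218 cells with 0 Wfdc2 UMIs. They held 2, 0, 0, 0, 0 and 32 UMIs of Clu, and whether they are ependymal cells was not tested. Their choroid plexus markers were at a median of 0.106% of UMIs, against 0.0879%, and 0 of the 6 were marked as doublets. With so few cells in 2 of the 4 libraries, no level of Wfdc2 is given for ependymal cells as a class. Ttr was at 3335, 196, 1132 and 2224 CPM in ependymal cells, where 1 cell of CSD 1 held 597 Ttr UMIs.

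**Figure D5:**
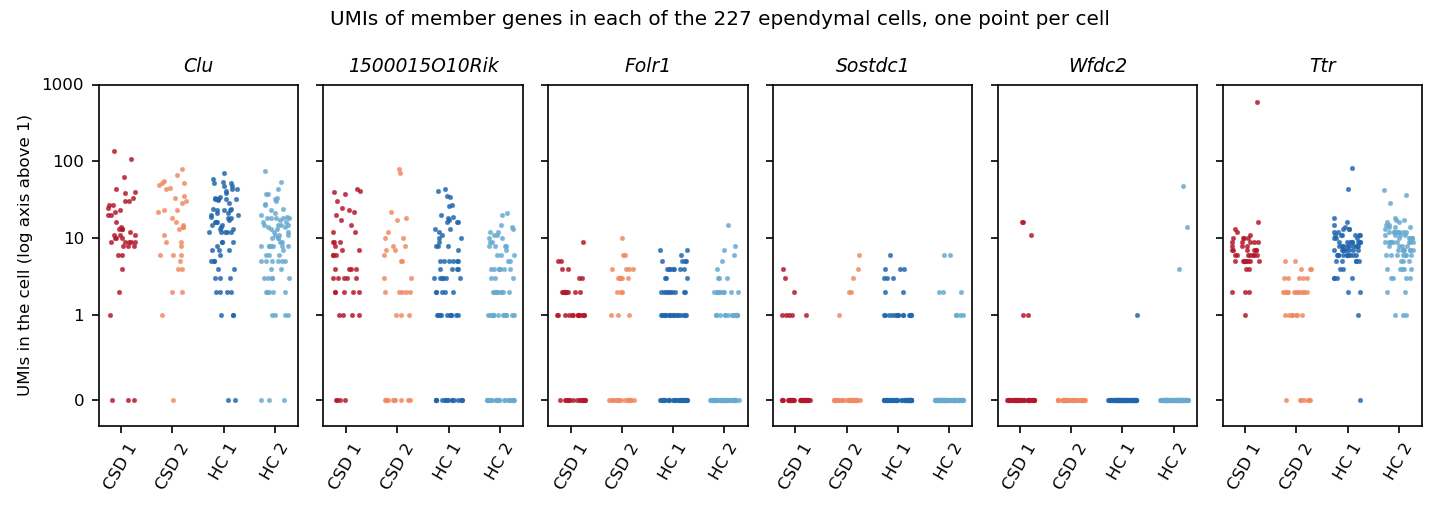
UMIs of 6 members in each of the 227 ependymal cells that did not pass the choroid plexus gate, with 1 point per cell, by library. The vertical axis is linear from 0 to 1 and logarithmic above. Clu and 1500015O10Rik are spread over most cells of each library. Folr1 is found in 123 of the 227 cells at up to 15 UMIs, and Sostdc1 in 46 cells at up to 6 UMIs. The 112 Wfdc2 UMIs lie in 9 cells, 6 of which hold at least 4.

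Further classes also carried members beyond what Ttr gave. In astrocytes, 249 of 406 cells held Clu, at 1902, 2666, 1258 and 2675 CPM in CSD 1, CSD 2, HC 1 and HC 2, or 16.6 to 84.2 times the given number. In oligodendrocytes, 25 of 25 cells held Enpp2, with 194 UMIs in all, at 1631, 1591, 1963 and 2275 CPM, or 26.2 to 149 times. The class is small, with 8, 11, 2 and 4 cells in the 4 libraries, and the highest multiple rests on 0.698 given UMIs in CSD 2. In fibroblasts, 23 of 117 cells held 1500015O10Rik, with 109 and 159 UMIs in CSD 1 and CSD 2 and 10 and 14 UMIs in HC 1 and HC 2, but 3 cells carried 215 of the 292 UMIs and 1 of them 149. Clu was found in 38 of the same 117 fibroblasts, with 127 UMIs in all, of which 3 cells carried 56 and 1 of them 32. It was at 3.60 to 15.9 times the given number, which was only 1.84 to 4.42 UMIs in a library. In oligodendrocyte precursors, 64 of 119 cells held Clu, at up to 19.7 times the given number and at 9.91 times with the 4 libraries summed, and 70 held Enpp2, at 1.73 to 10.8 times. In arterial smooth muscle cells, 120 of 525 held Clu, at 1.67 to 8.96 times. Endothelial cells, taken as lacking these products, were themselves at 2.78 to 3.21 times for Clu and 1.40 to 2.09 times for Enpp2. In HC 2 both genes in oligodendrocyte precursors lay within these ranges, and Clu in arterial smooth muscle cells lay below its range. In CSD 1, CSD 2 and HC 1 each of these values lay above the endothelial range. HC 2 therefore does not set these classes apart from endothelial cells.

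Across the 10 other classes with at least 10 cells in every library, all cells kept, 52 tests of a member in a class were made and 0 passed (lowest edgeR adjusted p = 0.758). The share of all genes tested that was called was 0% in ependymal cells, microglia, neurons, oligodendrocyte precursors, T cells and arterial smooth muscle cells, 0.0343% in pericytes, 0.059% in astrocytes, 0.0696% in endothelial cells and 0.176% in fibroblasts. Of the 52 tests, 5 had an unadjusted p under 0.05, and DESeq2 called 0. Over all genes such a p was reached by 140 of 10064 in microglia, the class with the lowest share. The highest share was in endothelial cells, with 781 of 10051. The log2 fold change of CSD over HC was below 0 in 44 of the 52, and for Ttr in 9 of 10 classes, from -2.80 in oligodendrocyte precursors to 0.012 in ependymal cells. For Ttr it was -0.87 ± 0.68 in endothelial cells and -0.92 ± 0.89 in microglia, near the -0.87 ± 0.51 of free RNA. The values of ependymal cells and oligodendrocyte precursors were not near it. In ependymal cells 1 cell of CSD 1 held 597 Ttr UMIs, and the value without that cell was not tested. Without CSD 1 the log2 fold change of Ttr in endothelial cells was -2.53. Here too CSD 2 then stands alone and is assumed to vary like the HC libraries. Without CSD 2 the value of Ttr in endothelial cells was -0.043.

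Among the members that exceeded the number given by Ttr, 0 of those tested passed. In ependymal cells the log2 fold change was 0.068 ± 0.25 for Clu, 0.47 ± 0.28 for 1500015O10Rik, -0.087 ± 0.26 for Folr1 and -0.49 ± 0.34 for Sostdc1 (edgeR adjusted p = 0.9996 for each, with 0% of 5376 genes called). For Clu in astrocytes it was 0.21 ± 0.38 (adjusted p = 0.9997). For 1500015O10Rik in fibroblasts without the gated cells, at 865 and 1615 CPM in CSD 1 and CSD 2 and at 151 and 139 CPM in HC 1 and HC 2, it was 3.07 ± 0.48 (unadjusted p = 0.000307, edgeR adjusted p = 0.111, a test chosen after seeing the data, with 3 of 1804 genes called), and most of these UMIs lay in the 3 cells named above. Enpp2 in oligodendrocytes was not tested, because 3 of the 4 libraries held fewer than 10 such cells.

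Of a list of 20 other secreted proteins of the choroid plexus, 19 were tested in choroid plexus cells and 0 passed, with a median log2 fold change of 0.054, against -0.0016 over all genes. The most abundant were Apoe, a lipid carrier (3785 ± 413 CPM), Cst3, which encodes the protease inhibitor cystatin C (3012 ± 212 CPM), and Ptgds, a prostaglandin synthase that also binds retinoids (2458 ± 179 CPM). Igfbp2, which binds insulin-like growth factors, was at 1402 ± 26.6 CPM, Psap, the precursor of the saposins, at 1321 ± 94.7 CPM and Spint2, a protease inhibitor, at 700 ± 49.6 CPM (SD, n = 4 libraries). By the mean over the 4 libraries each of these stood below Enpp2 and 1500015O10Rik, while in CSD 2 Apoe (4278 CPM) stood above 1500015O10Rik (4148 CPM). In deep against shallow cells 3 of 18 were called higher and 0 lower, namely F5, the coagulation factor V (log2 fold change 2.28 ± 0.43), Igfbp2 (1.32 ± 0.32) and Spint2 (1.10 ± 0.33). Over all 8461 genes 0.981% were called higher and 1.37% lower, a share that is not matched for level. The count of 3 is therefore not read as an excess. The fold changes of these 3 genes are as fitted with TMM, where the median of all genes was 0.39. Spint2 passed narrowly (edgeR adjusted p = 0.0420), and other scalings were not examined for the listed genes.

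Of 23 receptors and partners of the member proteins, 18 were tested in choroid plexus cells and 0 passed, with a median log2 fold change of 0.052. Lrp6, a Wnt co-receptor, was at 87.4 ± 8.89 CPM, Vldlr, a receptor for apolipoprotein E, at 85.8 ± 9.84 CPM, and Plpp1, which breaks down lysophosphatidic acid at the cell surface, at 80.5 ± 4.37 CPM. Bmp6, a BMP ligand, was at 59.5 ± 9.30 CPM and Slc19a1, the reduced folate carrier, at 46.7 ± 2.51 CPM. The plasma partner of transthyretin, Rbp4, had 5 UMIs and the lysophosphatidic acid receptor gene Lpar1 had 2 UMIs over the choroid plexus cells of the 4 libraries. Lrp2 and Lpar5 had 0 UMIs. In deep against shallow cells 0 of 15 were called higher and 1 was called lower, Plpp3, a relative of Plpp1 (-1.94 ± 0.52, as fitted with TMM). Over all 8461 genes 0.981% were called higher and 1.37% lower.

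The genes whose levels followed each member most closely over 44 points, 11 classes in 4 libraries, were found by Pearson correlation of log2(CPM + 10). All cells of each class were kept here, so the fibroblast points include the 13 gated cells. The points of a library share its depth and its free RNA, so the values are a description. Ttr and Enpp2 were each other's closest gene (r = 0.96), followed for both by Kcnj13, a potassium channel of the choroid plexus (0.92 and 0.94), and then by Tmem72 for Ttr (0.90) and 2900040C04Rik for Enpp2 (0.91). Folr1 and 1500015O10Rik were each other's closest gene (0.95). They were followed by Sostdc1 (0.92) and Lbp (0.91) for Folr1 and by Slc13a4 (0.90) and Sostdc1 (0.90) for 1500015O10Rik, and both were also found in ependymal cells.

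Sostdc1 was followed by Clic6 (0.96), Steap2 (0.94) and Steap1 (0.94), and Wfdc2 by Frmpd1os (0.90), Sostdc1 (0.88) and Clic6 (0.88). Kl was closest to Wdr86 (0.95), Strip2 (0.94) and Ins2 (0.93). The 3 closest genes of Clu were Tmem47 (0.89), Apoe (0.88) and Mt3 (0.88).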

How the data were processed

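The authors deposited, per library, a raw matrix of UMI counts (genes by barcodes, no normalization). The submitters' notes name Cell Ranger 4.0, the file headers 3.1.0; the paper names another version. Barcodes with at least 500 UMIs, 250 genes and at most 25% mitochondrial UMIs were kept. Libraries were integrated with sctransform 0.4.2 in Seurat 5.3.0 (3000 variable genes without the members, 40 components, resolution 1.6, seed 42) and clusters named from marker lists. Scrublet (scanpy 1.11.5) was used to mark doublets, which were kept. UMIs were summed per library and class and compared with edgeR 4.0.16 (filterByExpr, TMM, quasi-likelihood F test, two-sided, Benjamini-Hochberg over all genes tested, threshold 0.05), the library being the replicate; DESeq2 1.42.0, other scalings, filters and choices of cells were alternatives. The gate took cells with at least 0.25% of UMIs in the 15 markers, at least 3 of them detected. The scripts were tested on simulated data. All members are named, as are the 6 most abundant and all called genes of each list and the 3 genes most alike, except that 1 gene the rule covers is not reported here. The members and lists were chosen with earlier results of these data known.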

Additional observations from a re-analysis of the deposited data

How the results depend on the processing

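The count of members called in choroid plexus cells (0) and in free RNA (0) was the same under every alternative that kept all 4 libraries. In the other classes it was 0, against 5 with no filter on low counts, and in deep against shallow cells 4, against 7 with no such filter and 7 with the marker gate. With no such filter the calls over all genes in the other classes ran from 0 in microglia and neurons to 103 of 13903 in fibroblasts. In deep against shallow cells they were 181 of 17950 with no such filter and 176 of 7746 with the marker gate. There Sostdc1 lost its call with DESeq2 (adjusted p = 0.480). In edgeR it did so with RLE (adjusted p = 0.353), total UMIs (0.585) and clusters made with the members (0.0515). Wfdc2, Kl and Enpp2 kept their calls in these fits. Leaving out 1 library gave 0 to 0 calls in choroid plexus cells, 0 to 23 in other classes, 0 to 7 in free RNA and 1 to 5 in deep against shallow cells. Over all genes, calls in choroid plexus cells were 6, against 0 with total UMIs, 2 with the marker gate, 35 with no low-count filter, 9 with the complexity filter of the study, and, chosen after seeing the data, 14 in the deep clusters and 1 in the shallow cluster. Leaving out 1 library gave 25 to 61 calls over all genes in choroid plexus cells, 2 to 1421 in free RNA (1 with all 4) and 100 to 141 in deep against shallow cells (199 with all 4), where the marker gate gave 138 higher and 38 lower. With the replicate number as a block, 0 members were called in choroid plexus cells, 0 in free RNA and 2 in other classes. These 2 were Ttr in T cells, where 9 of 1220 genes were called, and Enpp2 in astrocytes, where 9 of 1696 were. In choroid plexus cells the block called 11 of all genes. The replicate numbers were not taken as pairs, because nothing in the labels ties them. Deviations of same-numbered libraries correlated at 0.013 in choroid plexus cells and 0.099 in free RNA. In the other classes this correlation ran from 0.0022 in pericytes to 0.40 in microglia, and the block moved calls over all genes from 7 to 220 in endothelial cells (0.11) and from 5 to 94 in fibroblasts (0.14).

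Log2 fold changes of CSD over HC in choroid plexus cells turned sign only near 0 or in the small shallow cluster. Kl was at -0.032 with the complexity filter and -0.24 in the shallow cluster. Enpp2 was at -0.014 with no low-count filter, -0.032 with the complexity filter, -0.0053 without marked doublets and -0.44 in the shallow cluster. Folr1 was at -0.011 with no low-count filter, -0.0035 with the marker gate, -0.0022 with clusters made with the members and -0.00090 without marked doublets. Ttr was at 0.0047 with total UMIs. In deep against shallow cells Clu was at -0.045 with total UMIs. The cause of these differences was not tested.

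Leaving out 1 library gave, in choroid plexus cells, -0.23 to 0.030 for 1500015O10Rik, -0.13 to 0.058 for Wfdc2, -0.061 to 0.11 for Kl, -0.097 to 0.11 for Folr1, -0.13 to 0.051 for Clu, -0.080 to 0.088 for Enpp2 and -0.061 to 0.044 for Ttr. In other classes it gave -0.25 to 0.98 for Clu in astrocytes, -0.24 to 0.30 for Clu in ependymal cells and -0.044 to 0.82 for 1500015O10Rik in ependymal cells. Depth limits the shallow cells most, with 12886 UMIs in all in CSD 2.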
